A study of Danio rerio with 24 samples.

Results

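The genes described here are 10 zebrafish genes of DNA replication and cell division, namely mcm2, mcm3, mcm4, mcm5, mcm6, mcm7, pcna, mki67, top2a and cdk1. They were matched by symbol, without regard to case, to the Ensembl identifiers of the expression files. The 10 symbols met 11 of the 32520 genes, because mcm6 is carried by a pair of identifiers, ENSDARG00000057683 and ENSDARG00000033231. Of the 11 genes, 9 passed the filter on low counts and were tested among 16223 genes. The genes that did not pass were cdk1 (ENSDARG00000087554), described by its values only, and ENSDARG00000033231, which summed to 10 counts over the 6 OF-training fish, 4 in OF-control, 5 in NF-training and 3 in NF-control. In what follows, mcm6 stands for ENSDARG00000057683.

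The liver RNA came from 24 adult ABTL zebrafish, which formed groups of 6 with 3 males and 3 females each. OF-training fish were overfed, each receiving 9 mL of shrimp a day, and swam 20 sessions over 8 weeks, and OF-control fish had the same food without swimming. NF-training fish swam the same sessions on 0.75 mL of shrimp, and NF-control fish had this food without swimming. All groups also received dry food, all were fasted overnight, and the trained fish were killed 24 h after the last session. Fish lived 6 to a tank and the tank of each fish is not named, so group and tank cannot be told apart.

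Mcm2 to Mcm7 form the ring-shaped helicase that is loaded on replication origins before S phase and unwinds DNA at the fork. Pcna is the sliding clamp that holds DNA polymerases on the template. Ki-67, the product of mki67, coats mitotic chromosomes, Top2a untangles sister DNA molecules before they separate, and Cdk1 drives entry into mitosis. Most hepatocytes of an adult liver are out of the cell cycle, and these genes are commonly read as marks of the few cells in it. In a whole liver, fewer cells with such transcripts and less RNA per cell cannot be told apart.

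The total was between 19315478 and 21399192 estimated counts per fish. Vitellogenins, the egg yolk precursors made by the female liver, held 0.00692% to 0.159% of the counts of males and 29.3% to 74.5% of those of females, which left fewer counts for other genes in females. CPM values are counts scaled to a common library size after TMM normalization, on which 1 count was worth 0.0224 to 0.0320 CPM in males and 0.0354 to 0.114 CPM in females. The hepatocyte marker fabp10a lay between 1860 and 14000 CPM in the 24 fish. Some libraries stood apart. The 3 lowest vitellogenin shares among females were those of NF-training female 3 (29.3%), NF-control female 1 (45.8%) and OF-training female 2 (58.0%), while the other 9 females began at 64.6%. NF-control male 4 had 940 CPM in 4 intestine markers together, against 1.60 to 22.0 CPM in the other 23 fish, with fabp2, a fatty acid binding protein of the gut, at 704 CPM. NF-training female 3 had 74.8 CPM in 12 leukocyte markers together, against 8.72 to 33.9 CPM in the other 23 fish, led by the macrophage receptor marco at 20.1 CPM. In this fish the T cell genes lck, cd4-1 and cd8a were at 0.213, 0.106 and 0.0709 CPM, below their medians of 0.538, 0.208 and 0.455. Its 6 biliary markers summed to 1320 CPM, against 456 to 953 CPM in the other 23 fish, with the epithelial adhesion gene epcam at 60.2 CPM against at most 11.6 CPM. The keratin genes krt8 and krt18a.1 gave 714 and 291 CPM of that sum. Of the other biliary markers, anxa4 was at 194 CPM, above its median of 102, with up to 216 CPM in the other 23 fish. cftr, absent from 11 fish, was at 0.0 CPM and tm4sf4 at 57.0 CPM, below its median of 68.4. The part of these cells in the values of this fish was not tested. Its 5.63 CPM of exocrine pancreas markers and 10.4 CPM of erythroid markers were the lowest sums of the 24 fish.

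All 10 genes were weakly expressed in most livers. On the TPM scale, which corrects for transcript length, the medians over 24 fish were 3.40 for mcm7, 2.73 for pcna and 0.810 for mcm5. The other 7 genes had medians from 0.0746 for mcm3 to 0.273 for mcm4, and mki67 stood at 0.0984 TPM. Within each gene the fish spread widely, from 0.945 to 35.3 TPM for pcna and from 0.0272 to 2.30 TPM for mki67. The ranges of neighbouring genes in this order overlapped throughout. For mcm7 the ratio of count to TPM varied between fish, from 0.583 to 1.37 times its median, which means that the mean transcript length behind its estimated counts differed between livers. For the other members, over fish with 10 or more counts, this ratio stayed within 0.861 and 1.06.

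A few fish carried most of the signal. The 3 females with the lowest vitellogenin share held 51.2% of the CPM of all 24 fish summed over the 11 genes. The sum was 107 CPM in NF-training female 3, 57.3 CPM in NF-control female 1 and 41.8 CPM in OF-training female 2. It was 5.13 to 20.8 CPM in the other 21 fish, with a median of 7.63. Next came the males NF-control 4 with 20.8 CPM and NF-control 6 with 17.6 CPM, and all 6 OF-control fish lay between 5.13 and 11.1 CPM. Over the 3 fish of each cell of group and sex, the mean sum was 10.1 ± 4.18 CPM in OF-training males and 19.5 ± 19.3 in OF-training females (SD, n = 3 each). It was 7.91 ± 3.01 in OF-control males and 6.39 ± 0.638 in OF-control females, 7.85 ± 0.716 in NF-training males and 43.5 ± 55.1 in NF-training females, and 15.3 ± 6.87 in NF-control males and 23.6 ± 29.2 in NF-control females. In the cells of females outside OF-control, 1 fish of 3 thus set the mean, and the SD was about as large as the mean or larger.

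**Figure D1:**
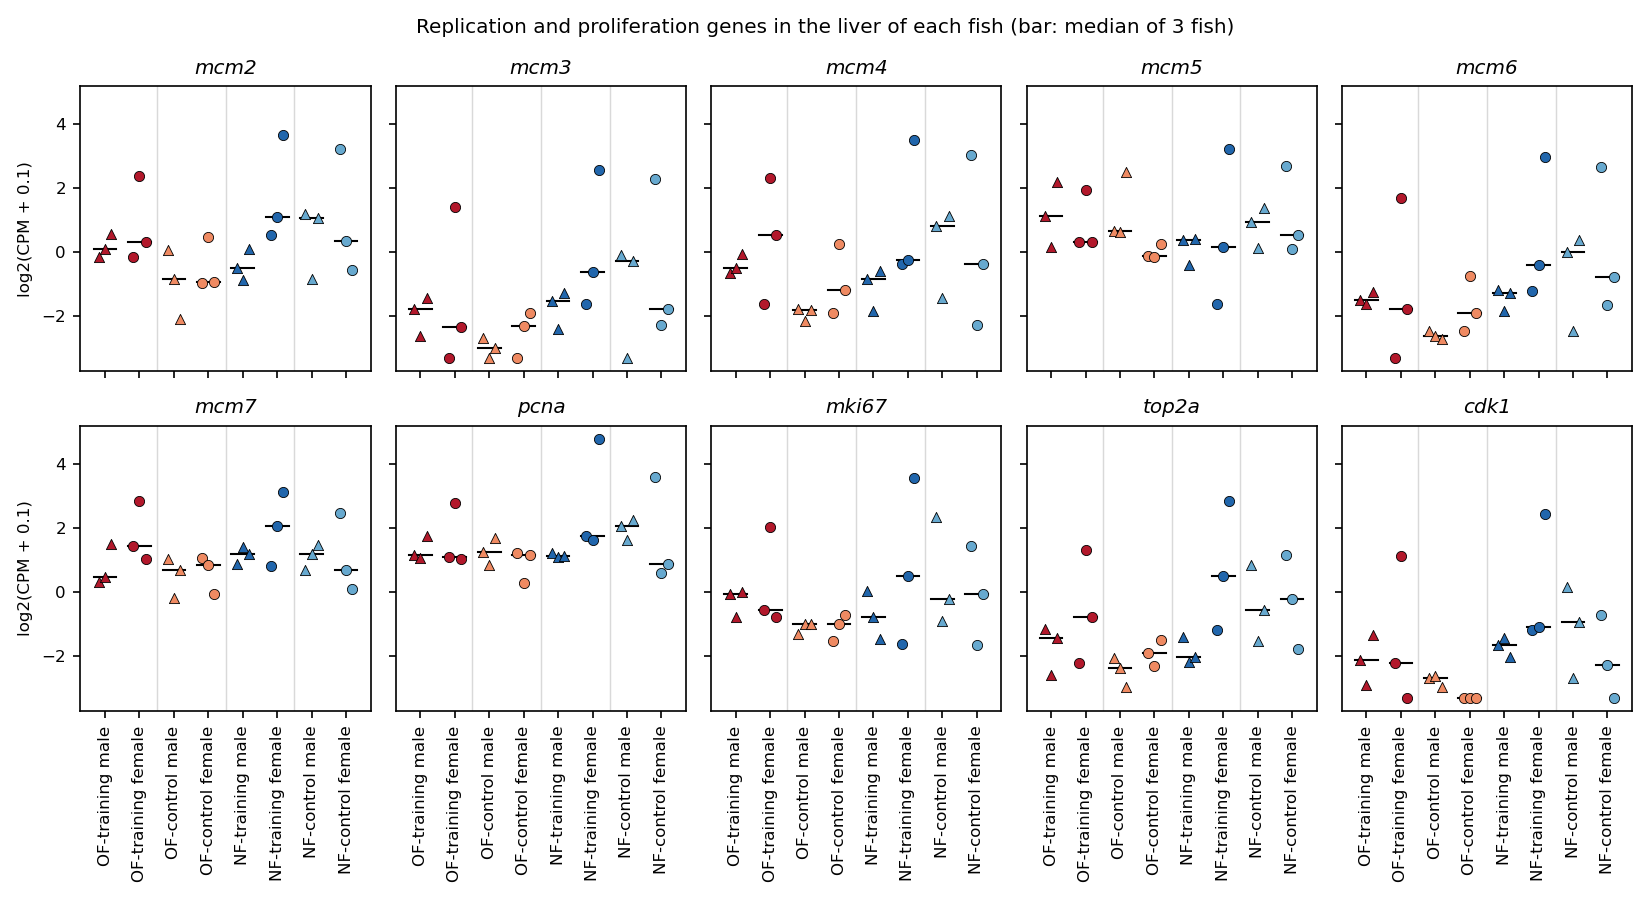
Level of the 10 genes in the liver of each of 24 fish, as log2(CPM + 0.1), by group and sex, with a bar at the median of 3 fish. Triangles are males and circles females, and fish with 0 counts lie at the lower edge. OF-training female 2, NF-training female 3 and NF-control female 1 are the highest of the 3 females of their group for all 10 genes.

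Among the helicase genes, mcm2 had 12.7 CPM in NF-training female 3, 9.22 CPM in NF-control female 1 and 5.08 CPM in OF-training female 2. The fourth fish, NF-control male 4, was at 2.18 CPM, and the median of all 24 was 0.965. For mcm3 the same 3 females had 5.81, 4.81 and 2.54 CPM and the median was 0.180. For mcm4 they had 11.4, 8.09 and 4.92 CPM, with a median of 0.589, and for mcm6 7.69, 6.25 and 3.15 CPM, with a median of 0.284. These 4 subunits therefore shared both their high fish and the order of those fish, and the 3 females held from 56.7% of the summed CPM for mcm2 to 75.6% for mcm3.

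The other subunits of the ring departed from this. mcm7 had 8.65 CPM in NF-training female 3, 7.08 CPM in OF-training female 2 and 5.43 CPM in NF-control female 1, but a median of 1.93, so that the highest fish was 4.49 times the median, against 32.2 times for mcm3. mcm5 was high in NF-training female 3 (9.32 CPM) and NF-control female 1 (6.35 CPM), and then in a pair of overfed males, OF-control male 3 with 5.59 CPM and OF-training male 6 with 4.50 CPM. OF-control male 3 had 211 counts of mcm5 and 5 of mcm2, 1 of mcm3, 7 of mcm4 and 2 of mcm6, and its mcm2 and top2a were the lowest of the 24 fish. For mcm5 this male was thus apart from its own group, and for its partners in the ring it was not.

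pcna had 27.6 CPM in NF-training female 3, 11.9 CPM in NF-control female 1 and 6.77 CPM in OF-training female 2, and 1.1 to 4.67 CPM in the other 21 fish. The 3 females were thus apart from all other fish for this clamp, which serves DNA repair as well as replication.

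The genes of mitosis had the same 4 fish highest, each gene in its own order. mki67 had 11.6 CPM in NF-training female 3, then 5.01 CPM in NF-control male 4, 4.0 CPM in OF-training female 2 and 2.61 CPM in NF-control female 1. top2a had 7.09, 1.68, 2.38 and 2.1 CPM in the same 4 fish and a median of 0.261 CPM. cdk1 had 5.32, 1.0, 2.08 and 0.512 CPM in them and a median of 0.120, and 5 fish had no count. The 3 OF-control females were all at 0 counts of cdk1, which allows up to 0.248, 0.301 and 0.255 CPM at 3 counts a fish.

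The balance of mitotic to helicase genes therefore differed between the fish with the most signal. mki67, top2a and cdk1 made up 46.0% of the summed counts of these 3 genes and mcm2 to mcm7 in NF-control male 4 (95% Wilson interval 42.4% to 49.6%). The share was 30.2% in NF-training female 3 (28.3% to 32.1%), 24.1% in OF-training female 2 (20.4% to 28.3%) and 11.5% in NF-control female 1 (9.57% to 13.8%). These intervals do not overlap, except those of the NF-training and the OF-training female, which meet only at 28.3%. OF-control male 3 had the lowest share of all fish, 5.64% (3.56% to 8.86%), which its 211 counts of mcm5 set. With mcm5 left out of the helicase counts its share was 19.1% (12.3% to 28.5%), inside the range of the other fish, while NF-control male 4 was at 51.9% (48.1% to 55.7%) and NF-control female 1 at 13.4% (11.2% to 16.0%). The intervals cover counting error only. They may be too narrow even for that, since reads copied by PCR are not separate molecules. NF-control male 4 is the library with the intestine markers, and its acta2, a smooth muscle gene, was at 87.6 CPM against at most 9.32 CPM in the other 23 fish. Their part in its mki67, top2a and cdk1 was not tested.

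**Figure D2:**
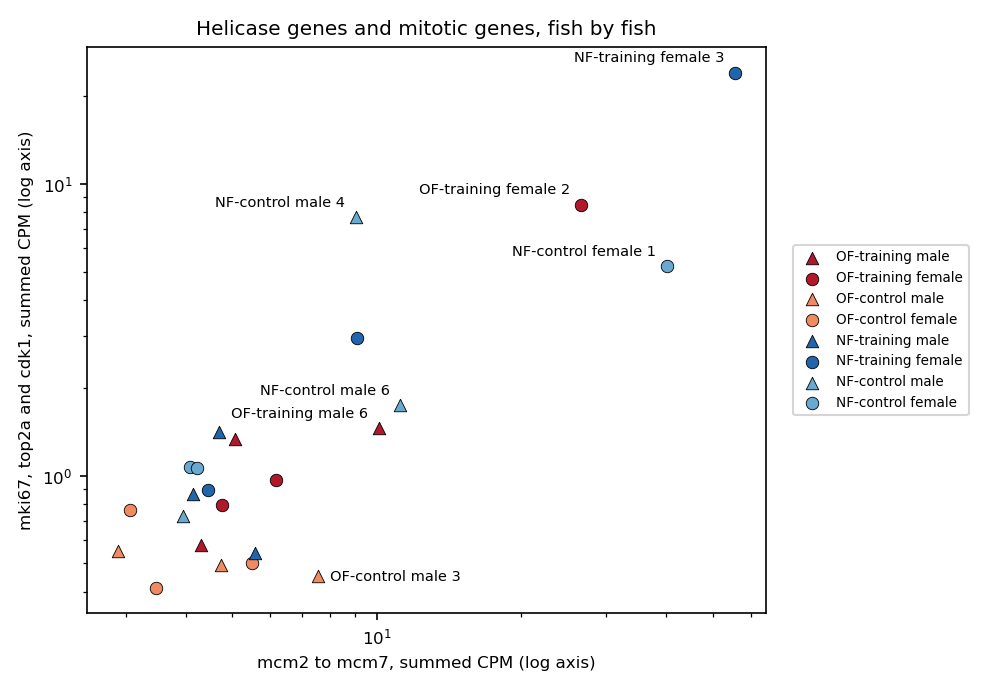
Summed CPM of mki67, top2a and cdk1 against summed CPM of mcm2 to mcm7 in each of 24 fish, both on log axes, with colour for the group, triangles for males and circles for females. NF-control male 4 has 7.69 CPM of the mitotic genes at 9.04 CPM of the helicase genes, whereas NF-control female 1 has 5.22 CPM at 40.1 CPM.

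Overfeeding was first compared in untrained fish, OF-control against NF-control. All 9 tested members were lower in OF-control, where 49.5% of all genes tested were lower. Their median was -2.24 on the log2 scale against 0.0047 over all genes, but none passed the threshold after adjustment. edgeR's quasi-likelihood test with Benjamini-Hochberg adjustment called 0 of the 9 members and 0 of 16223 genes (0.0%) at an adjusted p under 0.05. At an unadjusted p under 0.05 it had 6 of 9 members lower, against 6.69% of all genes. At this threshold DESeq2 had 6 of 9 lower, limma voom 3 and limma on log2(TPM + 1) 0, against 7.5%, 5.09% and 7.8% of all genes. limma voom also called 0 members. DESeq2 called 85 of the 16223 genes, 3 of them members, with adjusted p of 0.0422 for mcm6, 0.0430 for mcm3 and 0.0499 for top2a. These 3 genes had at most 3 counts in 5 or 6 of the 6 OF-control fish.

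mcm3 had 0.0, 0.0407 and 0.170 CPM in OF-control fish as the lowest, median and highest value, against 0.0, 0.455 and 4.81 CPM in NF-control fish. Its log2 fold change was -4.17 ± 1.21 (SE, adjusted p = 0.237), which rests on 6 counts in all OF-control fish together and 158 in NF-control fish, and no OF-control fish had more than 3 counts. top2a had 0.0265, 0.119 and 0.255 CPM in OF-control, against 0.192, 0.660 and 2.1 CPM in NF-control, a log2 fold change of -3.05 ± 0.897 (adjusted p = 0.237). The 2 lowest NF-control fish, at 0.192 and 0.242 CPM, fell inside the OF-control range. mki67 had 0.248, 0.399 and 0.509 CPM in OF-control, against 0.215, 0.806 and 5.01 CPM in NF-control (-2.24 ± 0.863, adjusted p = 0.355).

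mcm4 had 0.123, 0.189 and 1.1 CPM in OF-control, against 0.107, 1.18 and 8.09 CPM in NF-control (-2.81 ± 0.888, adjusted p = 0.265). For mcm6 the values were 0.0530, 0.0824 and 0.501 CPM in OF-control, against 0.0806, 0.695 and 6.25 CPM in NF-control (-3.37 ± 0.980, adjusted p = 0.237). mcm2 differed by -1.89 ± 0.720 (adjusted p = 0.35). The groups of 6 overlapped for every member, and 0.166% of all genes were lower without overlap. mcm5 (-0.19 ± 0.708), mcm7 (-0.68 ± 0.438) and pcna (-1.0 ± 0.587) had adjusted p from 0.539 to 0.944. cdk1 was measured in 5 counts in OF-control fish and 71 in NF-control fish.

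An exact two-sided permutation test exchanged group labels among fish of one sex. Its 400 arrangements allow no p under 0.005, and the exact test gave p = 0.01 for top2a, p = 0.04 for mcm6 and p from 0.075 to 0.575 for the other 7 members, before any adjustment. The sexes were also fitted apart. In males alone 8 of 9 members were lower, 7 at an unadjusted p under 0.05 where 9.46% of all genes were, with a lowest adjusted p of 0.180 in edgeR. The 3 OF-control males lay below all 3 NF-control males for mcm4, mki67 and top2a, that is 3 of 9 members, against 8.17% of all genes. In females alone all 9 were lower with a median of -2.43. Of these, 0 of 9 had an unadjusted p under 0.05, where 1.91% of all genes were lower, and no member separated the groups, against 4.54% of all genes. The members summed to 57.3 CPM in NF-control female 1, but to 6.55 and 7.01 CPM in NF-control females 2 and 3. They summed to 5.94 to 7.12 CPM in OF-control females. The difference between the sexes, tested in a model with the 8 cells, was called for 0 members by edgeR and DESeq2, with 0 of 9 at an unadjusted p under 0.05 in both, against 5.57% of all genes in edgeR, which called 0.0% of them. It was negative for 4 of 9 members, against 50.2% of all genes, and ran from -0.73 to 2.39 (mcm5) with a median of 0.27, which became -1.92 without NF-control female 1.

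Some NF-control fish decided the size. NF-control female 1 and male 4 had the highest member sums of their group, so leaving them out lowers that side alone. With either left out alone, 5 of 9 members were lower at an unadjusted p under 0.05. The share of all genes was 5.56% without female 1 and 4.92% without male 4. Without NF-control female 1 and male 4 together, left out after their values were known, the median log2 fold change was -0.995, 8 of 9 members remained lower, 3 had an unadjusted p under 0.05, against 3.41% of all genes lower in that fit, and the lowest adjusted p was 0.754 in edgeR. mki67 was then at -0.65 ± 0.854, and it was at -1.0 ± 0.787 without NF-control male 4 alone. mcm5 turned to 0.29 ± 0.706 without NF-control female 1. The 12 leukocyte markers summed to 8.72 to 19.6 CPM in OF-control and 13.3 to 33.9 CPM in NF-control fish. Of these, 3 of 8 tested were lower at an unadjusted p under 0.05, against 6.69% of all genes with all fish. The 11 stellate and stromal markers summed to 17.2 to 39.0 CPM in OF-control and 21.6 to 134 CPM in NF-control fish, with 5 of 8 tested lower at an unadjusted p under 0.05. NF-control male 4 was the highest NF-control fish in both lists, and acta2 gave 87.6 of its 134 CPM. All 3 tested intestine markers were lower at an unadjusted p under 0.05, with a median of -4.85, and the list summed to 1.60 to 11.7 CPM in OF-control and 2.36 to 940 CPM in NF-control fish, where the highest is male 4. The defining T cell gene lck was at 1.25 CPM or below in every fish, and the part of these cells in the result was not tested.

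**Figure D3:**
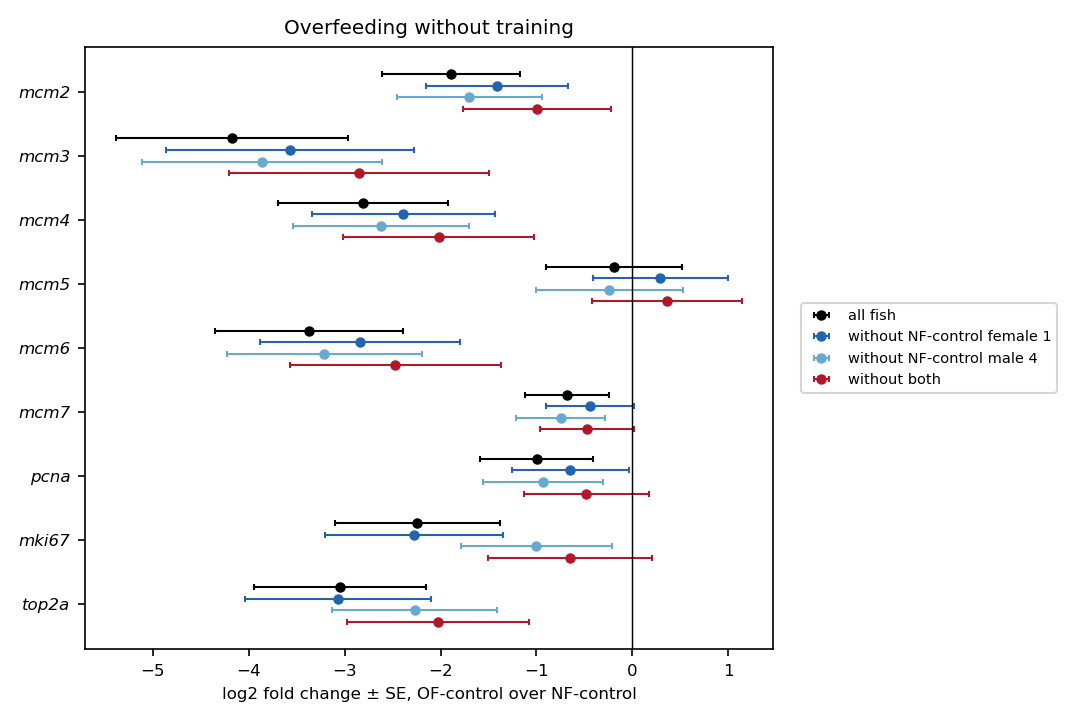
Log2 fold change of OF-control over NF-control with its SE for the 9 tested genes, from the edgeR model with group and sex, with all fish and without NF-control female 1, without NF-control male 4 and without both. mcm3 is at -2.85 without both and at -4.17 with all fish, and mcm5 is at 0.36 without both.

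Training was compared in overfed fish next, OF-training against OF-control. All 9 members were higher in OF-training, where 50.4% of all genes were lower. Their median was 1.48 on the log2 scale against -0.0028 over all genes, and again none passed. edgeR, DESeq2 and limma voom each called 0 of 9 members, while edgeR called 1 of 16223 genes (0.00616%). At an unadjusted p under 0.05, edgeR had 3 of 9 members higher, against 2.70% of all genes. At this threshold DESeq2 had 4 of 9 higher, limma voom 0 and limma on log2(TPM + 1) 0, against 3.52%, 2.5% and 0.672% of all genes. Among other cell types, 3 of 8 tested stellate and stromal markers were higher at an unadjusted p under 0.05 and 0 lower, with a median of 0.35, and the 11 genes of that list summed to 14.0 to 58.7 CPM in OF-training and 17.2 to 39.0 CPM in OF-control fish. Their part in the result was not tested. The OF-control fish also served in the comparison with NF-control, so these results are not independent of each other.

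mcm3 differed by 2.90 ± 1.28 (51 counts in OF-training fish and 6 in OF-control fish), mcm6 by 2.11 ± 1.02, mcm4 by 2.03 ± 0.898 and top2a by 1.91 ± 0.933, all with an adjusted p of 0.916 in edgeR. mki67 had 0.481, 0.713 and 4.0 CPM in OF-training fish as lowest, median and highest value, against 0.248, 0.399 and 0.509 CPM in OF-control fish. The groups overlapped only between 0.481 and 0.509 CPM, and the log2 fold change was 1.48 ± 0.878 (adjusted p = 0.937). In the exact permutation within sex, mki67 had p = 0.01 and mcm2 p = 0.045, and the other 7 members had p from 0.06 to 0.44, before adjustment.

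Among males the separation was seen in 4 of 9 members, against 6.76% of all genes. mcm4 had 0.540, 0.609 and 0.859 CPM in OF-training males, against 0.123, 0.186 and 0.192 CPM in OF-control males. mcm6 had 0.224, 0.254 and 0.326 CPM in OF-training males, against 0.0530, 0.0615 and 0.0822 CPM in OF-control males, which were 2 or 3 counts a fish. mcm3 and mki67 did not overlap either, but for mcm3 OF-training male 5 (0.0641 CPM) and OF-control male 1 (0.0548 CPM) both had 2 counts, so that their order came from the scaling. In females mcm5 separated the groups, 1 of 9 members against 3.93% of all genes, with 1.14, 1.16 and 3.77 CPM in OF-training females and 0.802, 0.826 and 1.1 CPM in OF-control females. The counts of mcm5 did overlap, with 10, 12 and 49 in OF-training females and 8, 10 and 13 in OF-control females. Without OF-training female 2 the median was 0.98, with 0 members at an unadjusted p under 0.05. The count was also 0 with OF-control male 2, OF-control female 4 or OF-training male 6 left out alone. With the 3 females of low vitellogenin share left out, the median over 9 members was 0.84, all 9 were still higher and 0 had an unadjusted p under 0.05 in edgeR.

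In normally fed fish, NF-training against NF-control, the members did not move together. Their log2 fold changes lay between -0.43 ± 0.776 for mcm4 and 0.44 ± 0.428 for mcm7, with 3 of 9 higher, 6 lower, where 49.7% of all genes were lower, and a median of -0.12. edgeR called 0 of 9 members, with 0 at an unadjusted p under 0.05 against 11.1% of all genes, DESeq2 and limma voom called 0, and edgeR called 28 of all genes (0.173%). The direction rested on single fish. Without NF-training female 3, the median was -1.46, 8 of 9 members were lower and 5 of these had an unadjusted p under 0.05, against 6.31% of all genes in that fit (lowest adjusted p 0.371). Without NF-control female 1 it was 0.37, with 8 of 9 higher. In males alone 8 of 9 members were lower in NF-training, 4 at an unadjusted p under 0.05 where 5.88% of all genes were. The NF-control males include male 4, the library with the intestine markers. In the fit of both sexes, 3 of 3 tested intestine markers were lower at this threshold, with a median of -3.69, and 1 of 8 leukocyte markers. The part of these cells in the result was not tested. pcna was the 1 member whose males did not overlap, with 2.03, 2.08 and 2.24 CPM in NF-training against 2.95, 4.10 and 4.67 CPM in NF-control, where 6.91% of all genes were lower without overlap. In females alone all 9 were higher, with 0 at an unadjusted p under 0.05, where 4.96% of all genes were higher.

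The interaction of training and sex in normally fed fish was negative for all 9 members and for 52.2% of all genes. It was -3.71 ± 1.48 for mki67 (adjusted p = 0.592) and -3.70 ± 1.39 for top2a (adjusted p = 0.575) in edgeR, and these were the 2 members with an unadjusted p under 0.05, against 5.54% of all genes. None was called by edgeR, which called 0.0% of all genes, or by DESeq2. The median over 9 members was -1.72, against -0.02 without NF-training female 3 and -4.53 without NF-control female 1. The number of members lower at an unadjusted p under 0.05 was 0 without NF-training female 3, 0 without NF-control male 4 and 8 without NF-control female 1, against 2.71%, 3.59% and 7.50% of all genes. With all fish, 4 of 8 tested leukocyte markers, 3 of 3 intestine and 2 of 5 biliary markers were lower at this threshold. Their medians were -1.04, -5.48 and -0.875. Hepatocyte, endothelial, erythroid and exocrine pancreas markers had 0 lower. The part of these cells in the result was not tested.

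Between the trained groups, OF-training against NF-training, 8 of 9 members were lower, against 49.8% of all genes, from -1.0 ± 0.775 for top2a to 0.06 ± 0.705 for mcm5, and 0 were called or had an unadjusted p under 0.05 in edgeR, against 9.01% of all genes, with 0 called by DESeq2 and limma voom and 0 of all genes (0.0%) called by edgeR. Without NF-training female 3, top2a was at 0.43 and all 9 members were higher. The interaction of training and feeding was positive for all 9 members, where 49.7% of all genes were negative, with a median of 1.41 and 2 members, mcm3 (3.22) and mcm4 (2.46), at an unadjusted p under 0.05, against 2.15% of all genes. edgeR and DESeq2 called 0 of 9, and edgeR called 0.0% of all genes (lowest adjusted p of a member 0.999). Without NF-training female 3 the median was 3.06 and 8 members had an unadjusted p under 0.05, against 2.84% of all genes higher in that fit, and without OF-training female 2 it was 1.06 and 0 had one. With all fish, the edgeR p was 0.0490 for mcm3 and 0.0499 for mcm4, and the count also fell to 0 with several other single fish left out, among them NF-control female 1 and male 4.

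Among the edgeR fits with all fish, sex was the comparison in which members were called. There, 5 of 9 members were lower in males at an adjusted p under 0.05, against 22.6% of all genes lower and 45.8% called in either direction. All 9 members had a negative log2 fold change, against 46.1% of all genes. mcm3 was at -2.42 ± 0.728 (adjusted p = 0.00901), mcm6 at -2.33 ± 0.641 (0.00477), mcm4 at -2.0 ± 0.606 (0.00945), top2a at -1.95 ± 0.617 (0.0123) and mcm2 at -1.54 ± 0.512 (0.0172). mcm7 (-0.73 ± 0.311), mki67 (-0.97 ± 0.631), pcna (-0.78 ± 0.433) and mcm5 (-0.23 ± 0.522) had adjusted p from 0.0582 to 0.740.

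For these genes the sexes differed more in their highest values than in their medians. mcm4 had 0.123, 0.5 and 2.1 CPM in 12 males as lowest, median and highest value, and 0.107, 0.708 and 11.4 CPM in 12 females. mcm3 had 0.0, 0.140 and 0.842 CPM in males, and 0.0, 0.181 and 5.81 CPM in females. mcm6 had 0.0530, 0.239 and 1.20 CPM in males, and 0.0, 0.407 and 7.69 CPM in females. The highest female lay far above the highest male for all 3 genes, while most fish of the sexes overlapped.

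With the 3 females of the lowest vitellogenin share left out, a setting also added with the values known, none of the 5 genes was called. Their log2 fold changes were 0.21 for mcm3, -0.15 for mcm6, -0.31 for mcm4, -0.71 for top2a and -0.27 for mcm2, with adjusted p from 0.269 to 0.833 in edgeR. mcm5 was then called in the other direction, at 1.06 ± 0.342 (adjusted p = 0.0145). For mcm5 and the 5 genes these were the 3 highest females, and the highest males stayed in. The setting thus lowers the female side alone and cannot decide whether the sexes differ. Leaving out NF-control female 1 alone left 2 members called, mcm6 and top2a, and leaving out OF-training female 2 alone left 2, mcm4 and mcm6. The share of all genes called in these fits is not given here, and 22.6% were called lower with all fish. At an unadjusted p under 0.05, 4 and 5 members were lower in these fits, against 22.7% and 22.5% of all genes. Without NF-training female 3 alone, all 5 genes stayed called, and 5 members were lower in males at an unadjusted p under 0.05, against 25.5% of all genes. When libraries were scaled by their totals alone, which moved the median of all genes to 1.44 in favour of males, 0 members were called, and mcm5, mcm7, pcna and mki67 turned positive. Relative to that median all 9 members were still lower in males. limma on log2(TPM + 1) also called 0 of 9 members. Adding 1 compresses values below 1 TPM, where most members had their median, and this fit had no TMM scaling. The part of either in the missing calls was not tested. The 5 genes lay between -0.328 for mcm4 and -0.235 for top2a in that fit, and mcm5 (0.298), mcm7 (0.256) and pcna (0.161) were positive. Of all genes in it, 64.1% were higher in males and 8.56% lower at an unadjusted p under 0.05. Markers of several cell types were called higher in males, where 23.2% of all genes were. They were 6 of 8 for hepatocytes, 4 of 7 for erythroid cells, 4 of 8 for stellate and stromal cells, 4 of 6 for endothelium and 2 of 3 for intestine. Fewer were called for leukocytes (2 of 8 higher and 1 lower), biliary cells (1 of 5) and exocrine pancreas (0 of 12). The vitellogenins and esr1 were lower in males for 8 of 8. The part of these cells in the result was not tested.

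**Figure D4:**
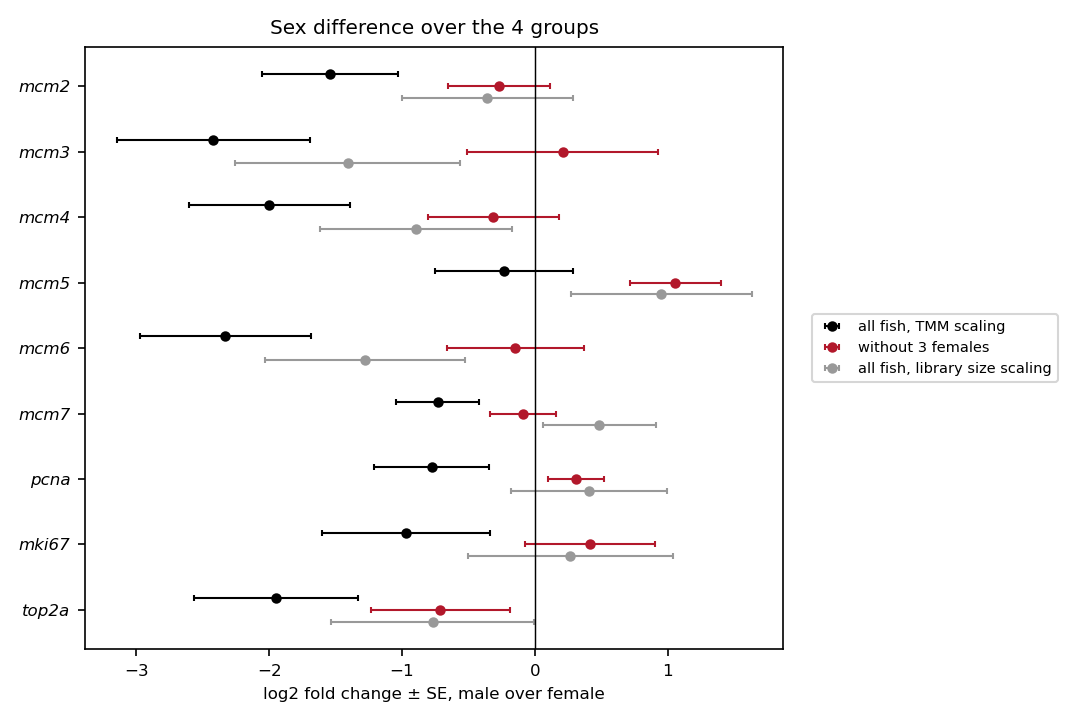
Log2 fold change of male over female with its SE for the 9 tested genes over the 4 groups, with all fish, without the 3 females of the lowest vitellogenin share, and with scaling by library size alone. mcm3 is at -2.42 with all fish and at 0.21 without the 3 females.

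Within the 12 females, the members were highest in the 3 fish where vitellogenin took least of the library. For pcna, r was -0.95 (permutation p = 0.00015, adjusted over 9 genes 0.00101) and rho was -0.741 (adjusted p = 0.0228) between log2 CPM and the vitellogenin share. For the 9 members r lay between -0.95 and -0.82, each with an adjusted permutation p of at most 0.00119, and rho between -0.839 for mcm7 and -0.441 for top2a, with 3 of 9 adjusted p under 0.05 (mcm7, mki67 and pcna). Without the 2 females farthest from the median share, r over the remaining 10 lay between -0.837 for mcm7 and -0.546 for mcm4. These 10 still held OF-training female 2, with a share of 58.0% and 41.8 CPM over the members. With all 3 females left out, r was not computed. Among the other 9 the sums did not follow the share, with 15.0 CPM at 64.6%, 6.11 at 65.4%, 9.08 at 72.7% and 6.55 at 74.5%. The vitellogenin share also sets how many counts are left for other genes, and the part of this in the relation was not tested. The share of all genes with such a relation is not given here, so these counts do not set the members apart from other genes.

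**Figure D5:**
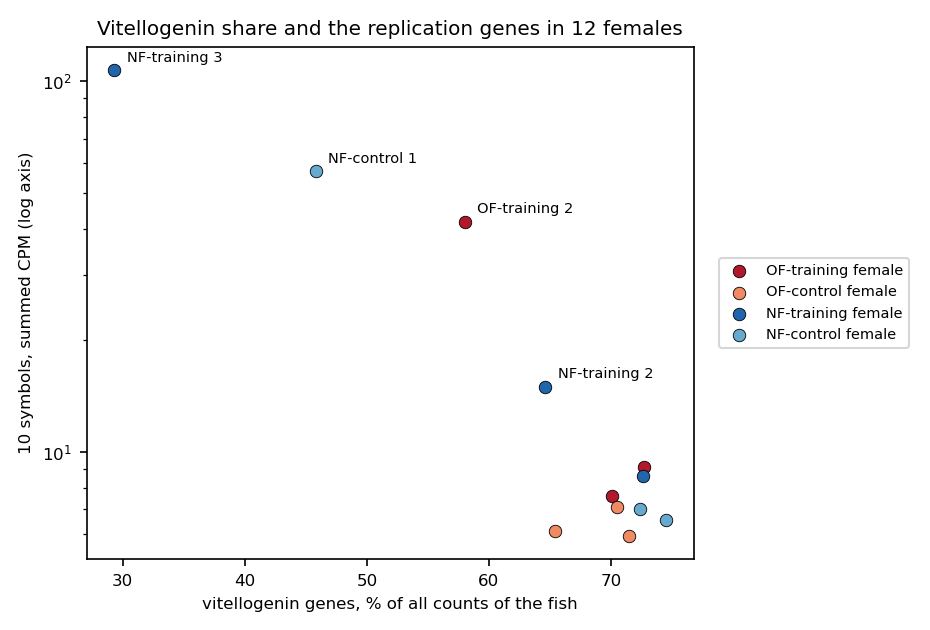
CPM summed over the 10 symbols (log axis) against the share of all counts taken by vitellogenin genes in the 12 females, coloured by group. The females with 29.3%, 45.8% and 58.0% have 107, 57.3 and 41.8 CPM, and the other 9, from 64.6% up, have 5.94 to 15.0 CPM.

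Across the 24 fish, after the mean of each sex was subtracted, all 36 pairs of the 9 members were positively correlated. Pearson's r lay between 0.564 and 0.971 with a median of 0.792, and all 36 passed an adjusted permutation p under 0.05 (100000 permutations within sex, highest adjusted p 0.0105). Spearman's rho lay between 0.375 and 0.927 and 35 of 36 passed, the exception being mcm5 with mcm7 (adjusted p = 0.0843). mcm3 and mcm6 were the closest pair (r = 0.971, rho = 0.927), and all 8 pairs of mcm5 were at 0.739 or below. Without the 2 fish farthest from the median of the first gene of a pair, r ranged from 0.237 for mcm2 with mcm5 to 0.948 for mcm3 with mcm6. Without the 3 females it ranged from 0.0902 to 0.932 with a median of 0.549, so that part of the relation rested on them. The fish shared library depth and composition, which enter every pair. The share of other gene pairs that would pass is not given here.

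Of 15321 other genes with a symbol, the 10 most like the mean of the 9 members over the 24 fish, by Pearson's r after the mean of each sex was subtracted, were chaf1a (0.901), hells (0.897), smc4 (0.894), pole (0.892), uhrf1 (0.891), ncapd2 (0.854), kpna2 (0.847), dnmt1 (0.838), si:ch211-222l21.1 (0.837) and trim3 (0.822). chaf1a encodes the large subunit of the factor that places histones on new DNA, pole the catalytic subunit of DNA polymerase epsilon, smc4 and ncapd2 condensin subunits, and dnmt1 and uhrf1 the pair that copies DNA methylation after replication. hells encodes a chromatin remodelling helicase and kpna2 an importin. Of the 10, 6 were in the lists of cell cycle genes. chaf1a had 12.4 CPM in NF-training female 3, 5.73 CPM in NF-control female 1 and 5.46 CPM in OF-training female 2, and at most 1.83 CPM in the other 21 fish. hells, smc4, pole, uhrf1 and ncapd2 also had all 3 females above the other 21 fish. The 10 genes were picked for their likeness over these same fish, so high values in the 3 females largely follow from the choice. For dnmt1, OF-training female 2 had 1.92 CPM, against up to 2.16 CPM in the other 21 fish, and kpna2, si:ch211-222l21.1 and trim3 reached 4.44, 23.1 and 25.6 CPM in those fish. Without the 3 females, r of the 10 genes lay between 0.578 for ncapd2 and 0.785 for hells.

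The single closest gene to mcm2 and to mcm6 was mcm3, and to mcm3 and to mcm4 it was mcm6. For pcna it was pole (r = 0.914), for mcm7 the primase subunit prim2 (0.872), for mcm5 uhrf1 (0.817), for mki67 kpna2 (0.920) and for top2a the kinetochore motor cenpe (0.904).

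The rest of the cell cycle machinery was followed in 7 lists, with 147 genes found and 87 tested. In no comparison of groups, and in none of the 3 interactions, was a gene of these lists called by edgeR. In OF-control against NF-control, 14 of 87 were lower and 2 higher at an unadjusted p under 0.05, against 6.69% and 4.59% of all genes, and the median log2 fold change was -0.18. By list, the median was -0.98 over 16 mitosis genes (6 lower at an unadjusted p under 0.05), -0.46 over 5 genes of nucleotide supply (0), -0.33 over 7 origin licensing genes (1 lower and 1 higher) and -0.31 over 26 genes of the fork and its polymerases (4 lower and 1 higher). It was 0.06 over 11 cyclins and Cdks (1 lower), -0.15 over 12 transcription regulators of the cycle (2 lower) and 0.17 over 10 inhibitors (0). In OF-training against OF-control, 5 of 87 were higher and 1 lower, against 2.70% and 2.56% of all genes, and in NF-training against NF-control 3 were higher and 2 lower, against 5.25% and 5.89%.

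None of the 3 most expressed genes of each list had a log2 fold change below -0.94 in OF-control against NF-control, and none was called. ccnd1, the cyclin D1 gene that answers growth signals, was at -0.66 ± 0.259 in OF-control against NF-control (adjusted p = 0.364), and its partner cdk4 by -0.18 ± 0.203 (0.783). gmnn, whose product geminin blocks a second licensing of origins, differed by 0.08 ± 0.209 (0.915), and mcmbp, which binds Mcm subunits, by 1.06 ± 0.330 (0.255), all from edgeR. The clamp loader gene rfc3 was at 0.84 ± 0.254 (0.240), the polymerase delta subunit gene pold3 at -0.13 ± 0.221 (0.866) and the clamp loader gene rfc4 at 0.13 ± 0.436 (0.936). The inhibitors ccng1, btg1 and tob1b, with mean levels of 230, 145 and 128 TPM, were at 0.32, -0.06 and -0.14. Other highly ranked genes, dut, dhfr and rrm1 of nucleotide supply, cdk7, orc3, the mitotic genes bub3, spc25 and kif11, and the regulators tfdp2, e2f6 and lin9, lay between -0.94 for dhfr and 0.15 for kif11, with adjusted p from 0.369 to 0.959.

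By sex, 24 of the 87 genes were lower in males and 9 higher at an adjusted p under 0.05 in edgeR, against 22.6% of all genes lower and 23.2% higher. Calls by sex were thus common among all genes. ccnd1 was at -2.41 ± 0.191 (adjusted p = 1.06e-09), gmnn at -2.31 ± 0.153 (6.42e-11), cdk4 at -0.94 ± 0.145 (1.25e-05) and rfc4 at -0.82 ± 0.314 (0.0372). Others were higher in males, among them the spindle motor kif11 at 2.39 ± 0.509 (adjusted p = 0.000504) and rfc3 at 0.82 ± 0.180 (0.000678). The 3 females of low vitellogenin share lay above the other 9 females in 3 of the 7 lists. The genes of the fork and its polymerases summed to 71.7 to 148 CPM in the 3 and to 37.3 to 48.2 CPM in the 9. The mitosis genes summed to 39.2 to 93.5 CPM in the 3 and to 21.6 to 34.5 CPM in the 9, and those of nucleotide supply to 23.2 to 69.3 CPM in the 3 and to 10.8 to 17.9 CPM in the 9. The ranges overlapped for the other 4 lists, as for the cyclins and Cdks with 44.8 to 69.4 CPM in the 3 and 38.1 to 65.9 CPM in the 9. Outside the cell cycle, the leukocyte markers separated these females too, with 18.8 to 74.8 CPM in the 3 and 12.6 to 18.7 CPM in the 9. The share of all genes with such a separation is not given here.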

How the data were processed

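Liver RNA of 24 fish was extracted with the RNeasy Mini Kit and sequenced on the BGISEQ-500. The authors trimmed reads with Trim Galore 0.6.4, checked them with FastQC and quantified transcripts with kallisto 0.4.6 (version per the labels) on GRCz11, and deposited estimated counts and TPM per gene and fish. The step from transcripts to genes is not given in the sources used here. The files held 0 columns of other series, and no fish pair had identical values.

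Estimated counts were rounded, filtered (filterByExpr, minimum count 10), scaled by TMM and tested with edgeR 4.0.16 in R 4.3.3 (quasi-likelihood, group and sex over 24 fish, a model with 8 cells for interactions with sex), with Benjamini-Hochberg adjustment over 16223 genes. SE was the fold change divided by the square root of F. The log2 CPM used a prior count of 2. Alternatives were DESeq2 1.42.0 and its size factors, limma 3.58.1 (voom, or log2(TPM + 1)), scaling by library size alone or without vitellogenin genes, no filter, no sex term, a replicate block, 1 sex or 1 comparison alone and leaving out each fish. The code was tested on simulated counts.

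All 10 members were named, with the 3 genes of highest mean TPM in each of 7 cell cycle lists and the 10 genes most alike. The members and lists were chosen with earlier results of these data known. No genome of the build was used, and sequences are not shown.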

Additional observations from a re-analysis of the deposited data

Results flagged for a closer look

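Within each group of 6 fish, the gap between the most extreme fish and its neighbour was divided by the range of the group on the log2 CPM scale, for 9 genes in 4 groups. A ratio above 0.625 was reached in 7 of 36 groups, where chance gives about 1 in 20, and the 9 genes are not independent. NF-training female 3 was far above the others for pcna (0.824), mcm4 (0.697), mcm6 (0.697) and mcm3 (0.629). OF-training female 2 was far above the others for mki67 (0.725) and mcm2 (0.707). OF-control male 3 was far above the others for mcm5 (0.694).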

How the results depend on the processing

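Over 36 member values and 945 alternatives, 875 kept direction and side of the threshold, 26 lost the call, 8 gained one and 36 turned. The settings with the 3 females of low vitellogenin share, or NF-control fish 1 and 4, left out were chosen after seeing the data. Of all genes, NF-training against NF-control called 28, but 3 with library size scaling, 159 with DESeq2, 74 with TPM, 0 without the sex term, 2 with its 12 fish alone, 0 in females, 7 in males, 8 without the 3 females, 2 without NF-control 1 and 4, and 2 to 50 leaving out 1 fish. OF-control against NF-control called 0, but 7 unfiltered, 2 with the replicate block, 85 with DESeq2, 1 with TPM, 3 without NF-control 1 and 4, and 0 to 2 leaving out 1 fish. OF-training against OF-control called 1, but 4 unfiltered, 8 with DESeq2, 0 with the replicate block, voom, no sex term, its 12 fish, females or without the 3 females, and 0 to 1 leaving out 1 fish. OF-training against NF-training called 0, but 1 unfiltered and 13 with DESeq2. Male against female called 7425, but 14428 with library size scaling and 11324 with TPM. The interactions with sex called 0, but for overfeeding 1 with the replicate block and 17 with DESeq2, and for training 7 with DESeq2. Of the 9 members, DESeq2 called 3 in OF-control against NF-control. Male against female called 5, but 0 with library size scaling, 0 with the replicate block, 0 with TPM, 1 without the 3 females, and 2 to 6 leaving out 1 fish. These log2 fold changes turned. In NF-training against NF-control, mcm4 was 0.126 without the sex term, 0.561 in females, 0.449 without NF-control 1 and 4, and -1.83 to 0.0831 leaving out 1 fish. In OF-control against NF-control, mcm5 was 0.643 in males, 0.285 without the 3 females, 0.359 without NF-control 1 and 4, and -0.952 to 0.293 leaving out 1 fish. In OF-training against OF-control, mcm5 was -0.149 in males and -0.237 to 1.01 leaving out 1 fish. In OF-training against NF-training, top2a was 0.337 in males and -1.78 to 0.427 leaving out 1 fish, and mcm5 was -0.689 with library size scaling, -0.00998 without the sex term, -0.882 in females and -0.29 to 1.42 leaving out 1 fish. In male against female, without the 3 females mcm3 was 0.211, mcm5 1.06, pcna 0.309 and mki67 0.417. With library size scaling mcm5 was 0.953, mcm7 0.485, pcna 0.41 and mki67 0.267, with TPM mcm5 was 0.298, mcm7 0.256 and pcna 0.161, with the replicate block mcm5 was 0.27, and it was -0.483 to 0.384 leaving out 1 fish. The cause was not tested. Replicate numbers did not pair fish, since 5 of 24 same-numbered pairs had deviations correlated above 0.1 (-0.15 to 0.30). Low depth limits cdk1, mcm3, mcm6 and top2a, which had at most 3 counts in 5 or 6 of the 6 OF-control fish.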

Other observations

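Without the filter on low counts, cdk1 could be fitted and gave log2 fold changes of -3.36 ± 1.18 in OF-control against NF-control (adjusted p = 0.310), 2.96 ± 1.21 in OF-training against OF-control (0.844) and -1.33 ± 0.770 in male against female (0.217), from edgeR over all genes. Its counts in OF-control fish were 5 in all. OF-training female 3 had 14.7 CPM of oocyte markers together, against at most 2.55 CPM in the other 23 fish, with 9.08 CPM of the 11 replication and proliferation genes.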
